A study of Mus musculus with 7 samples.

Results

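Reads over 39 chromatin remodeller and Polycomb genes were described in ChIP-seq libraries of mouse pharyngeal arches. The 39 genes were chosen by symbol from the CHD, ISWI, SWI/SNF and INO80/SRCAP remodeller families and from Polycomb repressive complexes 1 and 2 (PRC1 and PRC2), and all 39 had a row in the deposited table of 27179 genes. They comprise 9 CHD genes, 2 ISWI genes, 13 SWI/SNF genes, 4 INO80/SRCAP genes, 4 PRC2 genes and 7 PRC1 genes. They were listed with earlier results of these data known, among them the reads over Actr5, so fold changes between the groups are given as a description and support nothing further. The anti-V5 ChIP libraries came from first and second pharyngeal arches of C57BL/6 embryos at E10.5. In the tagged embryos, hereafter V5, both copies of Kat6a, which encodes the histone acetyltransferase MOZ, carry a C-terminal Flag-V5-BIO tag. Homozygous tagged mice are viable and fertile according to the series' design text. Wild-type embryos, hereafter WT, lack the V5 epitope, and their arches were put through the anti-V5 immunoprecipitation as a control for reads that do not depend on the tag. There were 3 V5 libraries, 3 WT libraries and 1 input library made from tagged arches without antibody, and no label says whether libraries came from separate embryos or pools, and the spread behind the p-values may therefore be technical. Reads on DNA do not measure expression, so the tissue label could not be checked with marker genes.

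Chromatin remodellers are ATP-driven machines that slide, evict or exchange nucleosomes. SWI/SNF opens chromatin at enhancers and promoters, CHD proteins include the ATPases of the NuRD co-repressor, ISWI spaces nucleosomes, and INO80 and SRCAP act on the histone variant H2A.Z. Polycomb complexes keep developmental genes silent, PRC2 by methylating lysine 27 of histone H3 and PRC1 by ubiquitinating histone H2A. Loss of CHD7 function is a cause of CHARGE syndrome in humans, and MOZ acts in opposition to Polycomb at Hox genes. Here the remodeller and Polycomb genes are considered as stretches of DNA that the tagged MOZ could occupy, not as proteins.

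The counts cover whole genes for most of the list. For 28 of 39 members the deposited length was within 1% of the RefSeq span in GRCm38.p6. It was far shorter for Smarcd3 (9381 of 31835 bp), Cbx7 (16840 of 55340 bp) and Cbx8 (2478 of 4611 bp). Among others, it was also shorter for Chd8 (39422 of 59892 bp) and Chd7 (131902 of 178048 bp). For Srcap it was longer than the span (54958 against 49237 bp). Of the 39 members, 31 were overlapped by no other gene of the table. Library totals ranged from 806648 to 3286602 counts in V5 and from 1288732 to 2504595 in WT, and the input had 3488745. Values are given as counts per 1000000 counts of the library (CPM). Gene starts were counted together with gene bodies, so the values do not tell promoter binding from reads elsewhere in the gene.

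The start regions of the members are mostly rich in CpG dinucleotides. RefSeq (GRCm38.p6) promoter sequences were matched by symbol for 30 members, some with more than 1 start and 35 entries in all. In the 250 bases upstream of the start the median was 22 CpG in the member entries, against 6 in all 32851 promoters of the table. The letters GGGCGG, which contain a CpG, were found on either strand in 30 of the 35 entries and in 32.7% of all promoters. CCAAT was found in 9 entries and in 33.8% of all promoters, and TATAAA in 2 entries and in 12.4% of all promoters. Upstream sequences are shown for members whose V5 and WT libraries did not overlap in CPM and that have a matched entry, with CpG in capitals and each read 5′ to 3′ on the strand of its gene. They carry 21 CpG in Chd5, 11 in Srcap, 16 in Chd9 and 21 in Smarcb1. They hold the letters GGGCGG, on one strand or the other, in each of these 4 genes, while CCAAT and TATAAA are in none of them. The stretch shown for Chd9 belongs to a start inside the annotated gene, which begins at 90828302. Chd9 has a further entry, not shown, at another start inside the gene, with 1 CpG, 33.6% GC and no GGGCGG. Chd5 has a further entry 3 bases away with 22 CpG.
Chd5 (chr4:152338401-152338650, + strand): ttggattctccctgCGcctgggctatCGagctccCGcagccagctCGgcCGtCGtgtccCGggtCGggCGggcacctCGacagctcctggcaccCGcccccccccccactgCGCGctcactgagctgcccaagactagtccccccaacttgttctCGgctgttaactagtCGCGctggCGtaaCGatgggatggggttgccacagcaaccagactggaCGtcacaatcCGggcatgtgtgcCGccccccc
Srcap (chr7:127511733-127511982, + strand): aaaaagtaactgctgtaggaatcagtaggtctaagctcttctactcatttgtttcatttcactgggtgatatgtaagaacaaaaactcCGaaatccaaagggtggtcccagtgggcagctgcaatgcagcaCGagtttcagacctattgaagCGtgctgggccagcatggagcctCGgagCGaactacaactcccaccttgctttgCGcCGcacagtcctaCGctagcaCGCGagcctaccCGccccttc
Chd9 (chr8:90828585-90828834, + strand): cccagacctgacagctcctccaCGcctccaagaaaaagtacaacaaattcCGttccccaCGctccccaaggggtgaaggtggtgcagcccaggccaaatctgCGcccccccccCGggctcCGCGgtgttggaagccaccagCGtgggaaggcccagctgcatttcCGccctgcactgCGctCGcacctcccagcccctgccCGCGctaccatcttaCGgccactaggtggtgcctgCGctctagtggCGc
Smarcb1 (chr10:75921615-75921864, - strand): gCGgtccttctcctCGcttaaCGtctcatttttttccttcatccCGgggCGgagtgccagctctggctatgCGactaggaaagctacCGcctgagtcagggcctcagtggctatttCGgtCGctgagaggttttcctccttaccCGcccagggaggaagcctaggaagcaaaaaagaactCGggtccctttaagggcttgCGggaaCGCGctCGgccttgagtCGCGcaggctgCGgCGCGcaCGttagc

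The first comparison asks whether the member genes held more reads when MOZ carried the tag. As a group they held a similar share of reads in both genotypes. The 39 genes together had 2849, 2798 and 2849 CPM in V5 replicates 1 to 3, against 2701, 2811 and 2773 CPM in the WT libraries and 2808 CPM in the input. The ratio of the means was 1.03, and the V5 and WT libraries overlapped. Long genes weigh most in such sums. Arid1b alone had a mean of 354 CPM in V5, where Actr5 had 34.7 CPM. Of the members, 34 had enough counts for the gene-level fit over 14575 genes, and 22 of the 34 had a value above 0, as did 52.0% of all tested genes. These values are log2 fold changes of V5 over WT. The median log2 fold change of the tested members was 0.05, beside 0.02 over all tested genes, and 23 of 34 members lay within 0.5 of 0. The member median was -0.10 without V5 replicate 1. With limma-voom it was -0.020, where all genes had -0.018, and 16 of the 34 members were above 0. In edgeR 21 were above 0 with the replicate number as a block and 22 with DESeq2's size factors. DESeq2 itself gave 23 of 39.

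No member passed the test. The quasi-likelihood test of edgeR called 0 of 34 members in either direction at a Benjamini-Hochberg threshold of 0.05, and it called 0.00% of all tested genes in each direction. The smallest adjusted p among the members with edgeR was 0.980, shared by Actr5 and several others, and over the alternatives tried that of Actr5 ranged from 0.0821 without a filter on low counts to 1.00. DESeq2 and limma-voom also called 0 members. At an unadjusted p under 0.05 there were 3 of 34 members with edgeR, against 4.12% of all tested genes. DESeq2 gave 3 of 39 members, where 1048 of 24444 genes had such a p. With limma-voom it was 2 of 34, where 352 of 14575 genes did. With the replicate number as a block in edgeR it was 4 of 34, where 583 of 14575 genes did. The 3 members with edgeR were Actr5, Chd3 and Chd5, all with more reads in V5, a direction in which 2.74% of all tested genes had such a p. Every V5 library lay above every WT library in 4 of the 34 members, Actr5, Chd3, Chd5 and Srcap, and such a separation was seen in 4.83% of all tested genes. With TMM-scaled library sizes 2 of these members, Actr5 and Chd5, kept it, in Chd3 and Srcap the lowest V5 and highest WT values changed places, and 4.69% of all tested genes were so separated. Every V5 library lay below every WT library in 2 of the 34 members, Chd9 and Smarcb1, and in 5.27% of all tested genes. With TMM-scaled sizes Arid2 joined them, where 5.49% of all tested genes were so separated.

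**Figure D1:**
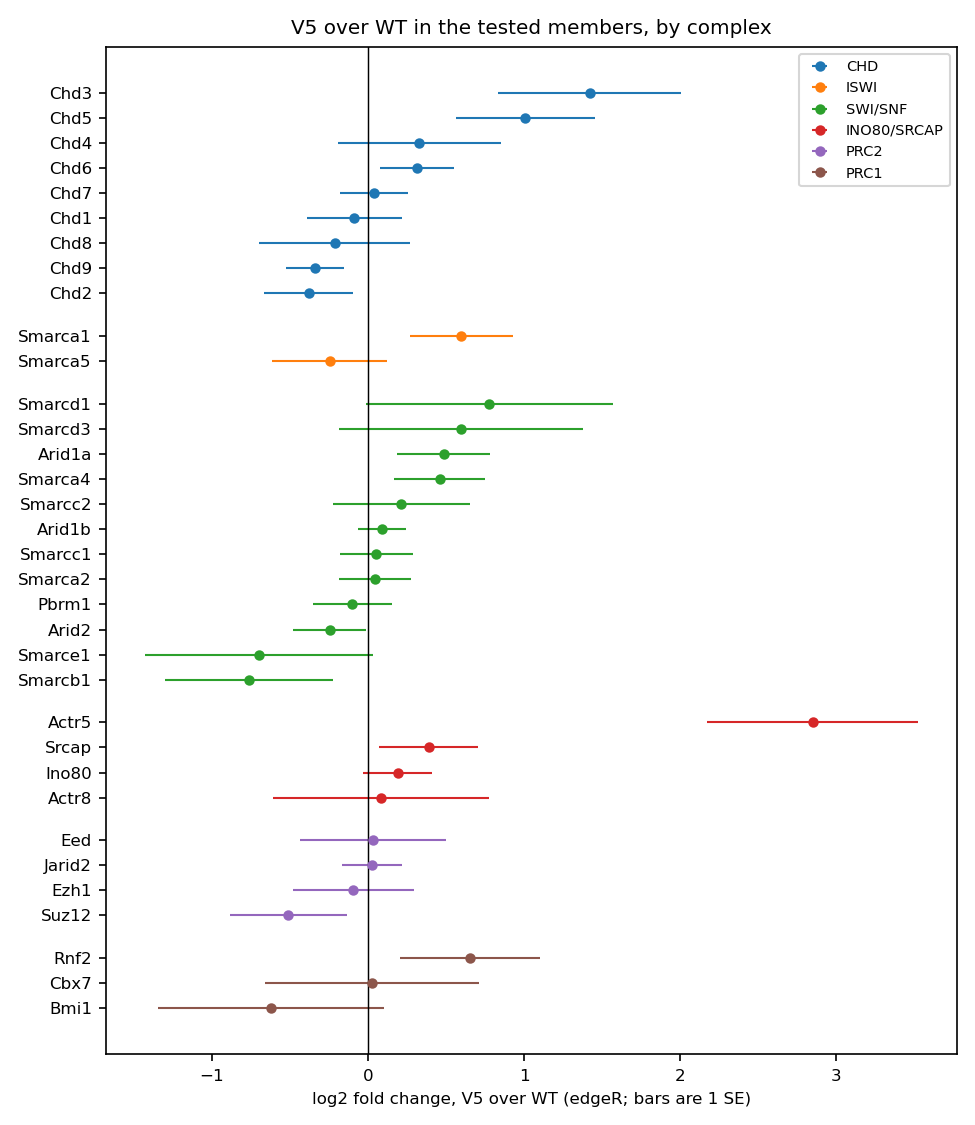
Log2 fold change of V5 over WT (horizontal axis, edgeR, bars 1 SE) for the 34 tested members, grouped by complex. Actr5 stands alone at 2.85, and 23 of the 34 members lie within 0.5 of 0.

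The INO80 and SRCAP remodellers held the member that stood furthest apart. Actr5 encodes an actin-related subunit of INO80 (GeneID 109275, chromosome 2, 158624881 to 158639211 in mm10). It had 39.7, 45.7 and 18.9 CPM in V5 replicates 1 to 3, against 2.33, 3.01 and 8.38 CPM in the WT libraries and 20.9 CPM in the input. As counts these were 32, 52 and 62 in V5, 3, 4 and 21 in WT, and 73 in the input. All V5 libraries were above all WT libraries, but V5 replicate 3 was below the input, and so were all WT libraries. The means were 34.7 ± 14.1 CPM in V5 and 4.58 ± 3.32 CPM in WT (SD, n = 3 each), and the log2 fold change was 2.85 (SE 0.68). It ranged from 2.56 to 3.68 when single libraries were left out, with 3.68 without WT replicate 3. Only 4 of the 14575 tested genes, Actr5 included, had a log2 fold change at least this large.

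Per length, Actr5 was high in V5 and low in WT. Actr5 had 2.43 CPM per kb in V5, 0.320 in WT and 1.46 in the input. Over all tested genes the 5th to 95th percentiles ran from 0.491 to 1.75 CPM per kb in V5, from 0.541 to 1.51 in WT and from 0.447 to 1.86 in the input. Actr5 thus lay above this range in V5, below it in WT and inside it in the input. Against the single input the log2 ratio was 0.73 in V5 and -2.14 in WT, and the exact Poisson 95% interval of the input value was 16.4 to 26.3 CPM, which covers counting error only.

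The genes around Actr5 did not share its difference in size. Of the tested genes within 150 kb of its ends, 5 in all, 4 lay above 0, and their log2 fold changes ranged from -0.13 to 0.73. The nearest tested neighbours were Gm14204, at -0.13 (SE 0.74), and Ppp1r16b, at 0.40 (SE 0.33). Their SEs ranged from 0.28 to 0.74, and the neighbours were looked up after the value of Actr5 had been seen.

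**Figure D2:**
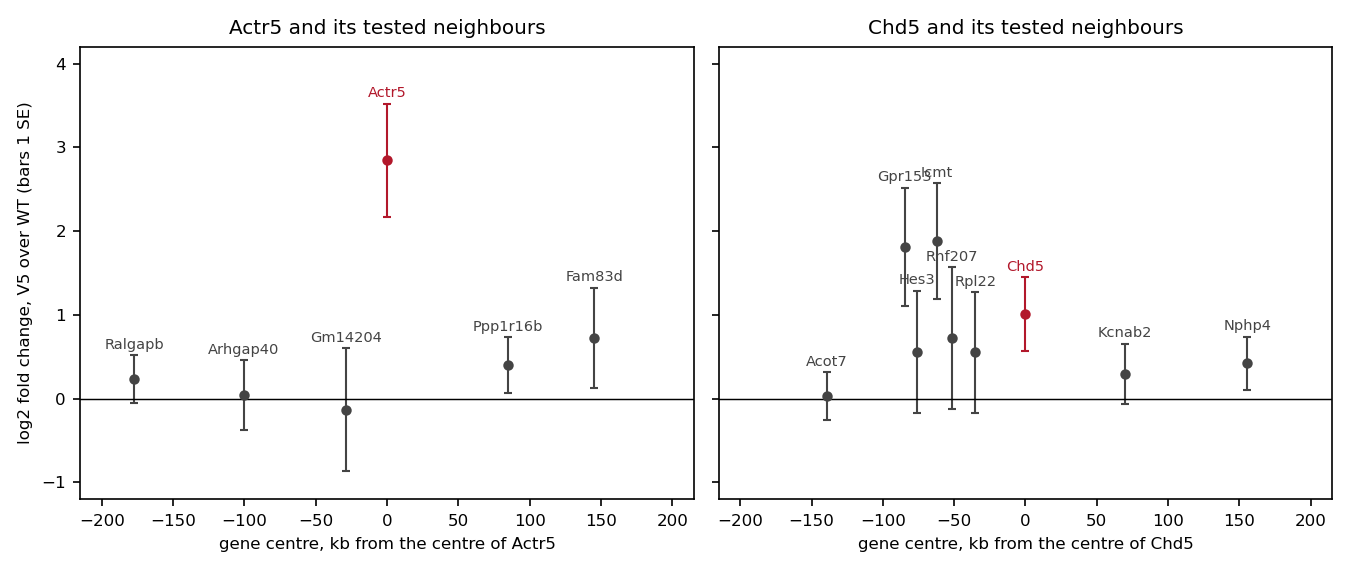
Log2 fold change of V5 over WT (vertical axis, bars 1 SE) for Actr5 and Chd5 and their tested neighbours, by the distance of gene centres in kb. Neighbours of Actr5 lie between -0.13 and 0.73, and those of Chd5 between 0.03 and 1.88.

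The other INO80 and SRCAP members differed little. Ino80, the ATPase of its complex, had 145, 147 and 145 CPM in the V5 libraries, against 130, 146 and 114 CPM in WT and 134 CPM in the input, a log2 fold change of 0.19 (SE 0.22). Its V5 libraries differed by less than counting error alone gives, with a chi-square per degree of freedom of 0.01, where 1 is the value expected from counting. Srcap, the ATPase that deposits H2A.Z, had 83.1, 71.2 and 66.9 CPM in V5, against 66.0, 57.3 and 49.1 CPM in WT and 72.2 CPM in the input, a log2 fold change of 0.39 (SE 0.32). Its lowest V5 library was above the highest WT library by about 1 CPM, less than the SD of 8.36 CPM in V5. Actr8, another actin-related subunit, had 16.1, 14.9 and 7.91 CPM in V5, against 13.2, 10.55 and 13.2 CPM in WT and 16.1 CPM in the input, and the groups overlapped (log2 fold change 0.08, SE 0.69). Without single libraries Actr8 ranged from -0.17, without V5 replicate 1, to 0.39, without V5 replicate 3. It thus did not keep its sign. With all libraries in the fit, all 4 genes had positive values. Their sum was 267 ± 24.8 CPM in V5 and 205 ± 17.2 CPM in WT (SD, n = 3 each), a ratio of 1.31 that fell to 1.16 when Actr5 was left out.

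Among the CHD genes, Chd3 and Chd5, which encode ATPases of NuRD, had the highest fold changes. Chd3 had 23.6, 60.6 and 20.1 CPM in V5, against 19.4, 7.53 and 12.4 CPM in WT and 16.9 CPM in the input. V5 replicate 2 was far above the rest and V5 replicate 3 exceeded WT replicate 1 by less than 1 CPM. The means were 34.7 ± 22.5 CPM in V5 and 13.1 ± 5.97 CPM in WT (SD, n = 3 each), a log2 fold change of 1.42 (SE 0.59) that ranged from 0.77 without V5 replicate 2 to 1.79 without WT replicate 1. Chd5 had 50.8, 56.2 and 32.9 CPM in V5, against 27.2, 21.1 and 22.4 CPM in WT and 37.3 CPM in the input. The groups did not overlap, and the input lay between them. Its means were 46.6 ± 12.2 CPM in V5 and 23.5 ± 3.20 CPM in WT (SD, n = 3 each), a log2 fold change of 1.01 (SE 0.44) that ranged from 0.86 to 1.24 without single libraries. Chd4, the main NuRD ATPase, had 50.8, 10.54 and 39.6 CPM in V5, against 24.8, 31.6 and 26.0 CPM in WT and 48.7 CPM in the input. V5 replicate 2 was the lowest library of all, so the groups overlapped, and the log2 fold change of 0.33 (SE 0.52) was -0.11 without V5 replicate 1 and 0.75 without V5 replicate 2.

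The tested genes around Chd5 all had positive values. Within 150 kb of Chd5 there were 8, with a median log2 fold change of 0.55 and a range from 0.03 to 1.88. Their SEs ranged from 0.29 to 0.85. Around Actr5 the median was 0.23, with 4 of 5 above 0, and 52.0% of all tested genes were above 0. A difference between the 2 surroundings was not tested. Icmt stood at 1.88 (SE 0.69) and Gpr153 at 1.81 (SE 0.70), both above Chd5 itself, and these neighbours were looked up after the value of Chd5 had been seen. Around Chd3, 3 of 5 tested neighbours were positive, with a range from -0.49 to 0.26.

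The remaining CHD genes had log2 fold changes between -0.38 and 0.31. Chd7, the gene mutated in CHARGE syndrome, had 138, 153 and 136 CPM in V5, against 134, 142 and 146 CPM in WT and 92.0 CPM in the input. All ChIP libraries were above the input and the V5 and WT libraries overlapped, with a log2 fold change of 0.04 (SE 0.22). Chd8, a relative of Chd7 linked to autism in humans, had 22.3, 16.7 and 46.9 CPM in V5, against 37.2, 24.1 and 41.5 CPM in WT and 51.3 CPM in the input. All of its ChIP libraries were below the input, and the log2 fold change of -0.21 (SE 0.48) was -0.76 without V5 replicate 3 and 0.06 without V5 replicate 2. Chd9 had 155, 236 and 237 CPM in V5, against 253, 307 and 249 CPM in WT and 304 CPM in the input. Every V5 library was below every WT library (209 ± 47.2 CPM in V5 and 270 ± 32.1 CPM in WT, SD, n = 3 each), and the log2 fold change was -0.34 (SE 0.19). Chd2 had 49.6, 148 and 128 CPM in V5, against 146, 131 and 155 CPM in WT and 124 CPM in the input. V5 replicate 1 was the lowest library, and the log2 fold change of -0.38 (SE 0.28) was -0.09 without it and -0.64 without V5 replicate 2. Chd1 and Chd6 stood at -0.09 (SE 0.30) and 0.31 (SE 0.24), and in both the groups overlapped. Without single libraries Chd1 ranged from -0.27 to 0.07 and Chd6 from 0.03, without V5 replicate 1, to 0.53, without V5 replicate 2. The CHD genes together had 851 ± 46.2 CPM in V5 and 875 ± 7.24 CPM in WT (SD, n = 3 each).

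**Figure D3:**
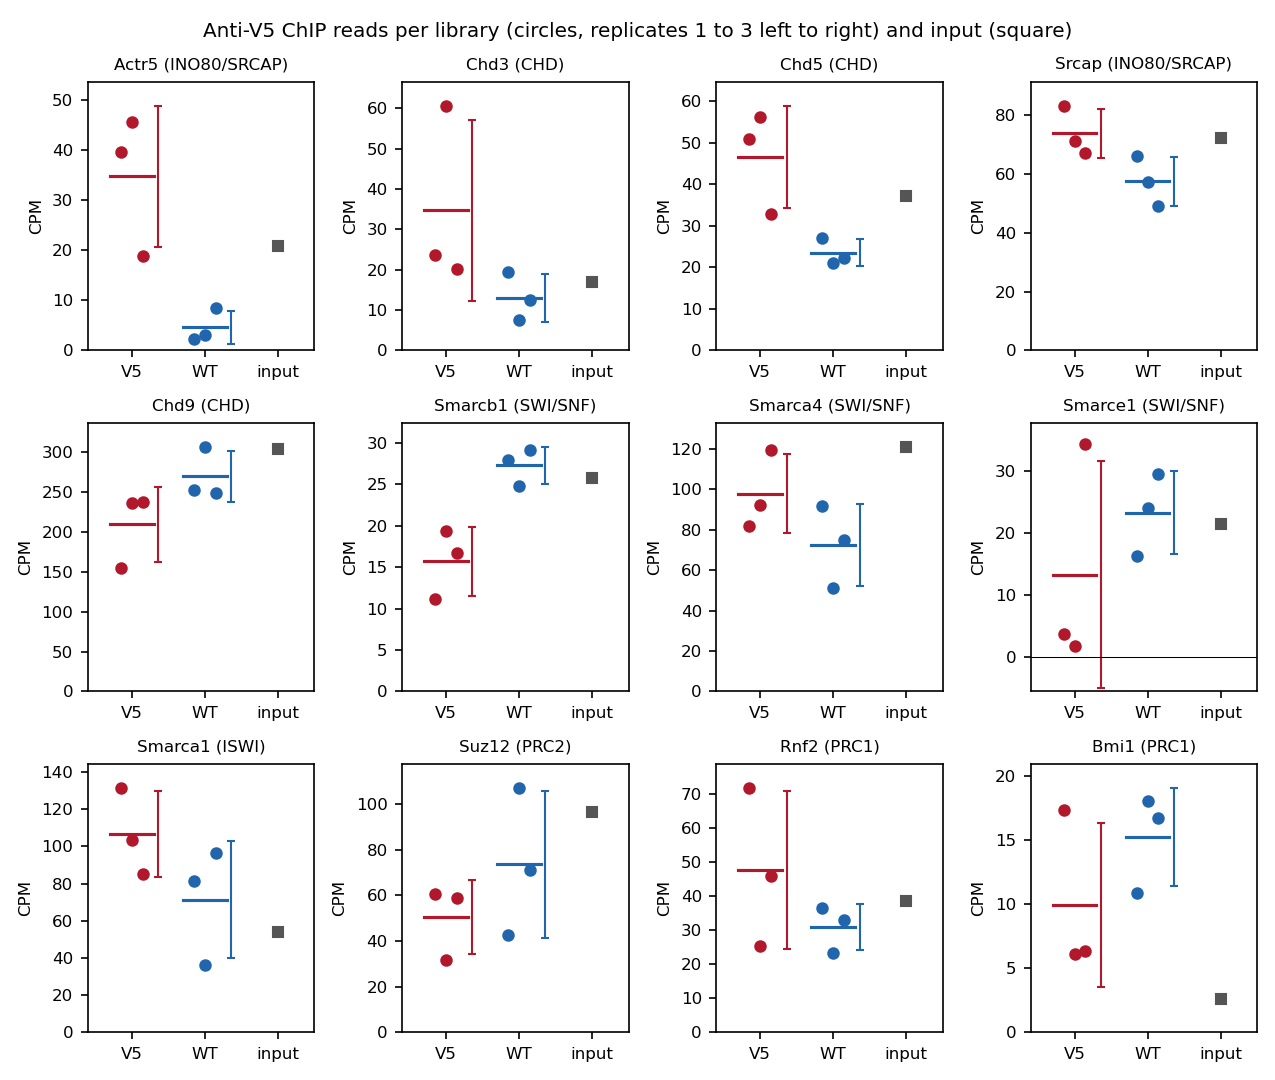
CPM in each library for 12 members, with V5 and WT replicates as circles, the group mean as a line, SD as a bar, and the single input as a square. The V5 and WT circles do not overlap in Actr5, Chd3, Chd5, Srcap, Chd9 and Smarcb1, and overlap in the other panels.

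The SWI/SNF genes showed no common direction. Their sum was 1142 ± 43.0 CPM in V5 and 1118 ± 29.7 CPM in WT (SD, n = 3 each), and of 12 tested members 8 had a positive and 4 a negative log2 fold change, with a median of 0.07. Of the ATPases, Smarca4 (BRG1) had 81.8, 92.2 and 120 CPM in V5, against 91.6, 51.2 and 75.1 CPM in WT and 121 CPM in the input. The input was the highest library and the groups overlapped, with a log2 fold change of 0.46 (SE 0.29) that ranged from 0.26 without WT replicate 2 to 0.65 without WT replicate 1. Smarca2 (BRM), its alternative in the complex, had 140 ± 19.4 CPM in V5 and 138 ± 27.4 CPM in WT (SD, n = 3 each).

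Of the core subunits of SWI/SNF, Smarcb1 and Smarce1 had negative and Smarcc1 and Smarcc2 positive log2 fold changes. Smarcb1, which encodes a core subunit lost in rhabdoid tumours, had 11.2, 19.3 and 16.7 CPM in V5, against 27.9, 24.9 and 29.1 CPM in WT and 25.8 CPM in the input. All V5 libraries were below all WT libraries and the input. The means were 15.7 ± 4.17 CPM in V5 and 27.3 ± 2.21 CPM in WT (SD, n = 3 each), a log2 fold change of -0.76 (SE 0.54) that ranged from -0.91 to -0.64 without single libraries. Its libraries varied about as counting error gives, with a chi-square per degree of freedom of 0.98 in V5 and 0.29 in WT. Smarce1, a DNA-binding core subunit, had 3, 2 and 113 counts in V5, 21, 32 and 74 in WT and 75 in the input. In CPM that is 3.72, 1.76 and 34.4 in V5, against 16.3, 24.1 and 29.5 in WT and 21.5 in the input. V5 replicates 1 and 2 were far below all other libraries while V5 replicate 3 was the highest of all. The log2 fold change of -0.70 (SE 0.73) was -3.04 without V5 replicate 3, -0.32 without V5 replicate 1 and -0.19 without V5 replicate 2, and the chi-square per degree of freedom of 27.5 in V5 was the largest of the tested members. Smarcc1 and Smarcc2, the scaffolds of the core, stood at 0.05 (SE 0.24) and 0.21 (SE 0.44). Without single libraries Smarcc1 ranged from -0.14 to 0.20 and Smarcc2 from -0.02 to 0.39, so neither kept its sign. Among the Smarcd subunits, the log2 fold change of Smarcd1 was 0.78 (SE 0.79), with 0.03 when V5 replicate 2 was left out and 1.51 when WT replicate 1 was, and Smarcd3 at 0.59 (SE 0.78). Smarcd2 was below the filter on low counts, with 5, 5 and 32 counts in V5, 31, 4 and 19 in WT and 42 in the input.

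The subunits that set the type of SWI/SNF complex had values on both sides of 0. Arid1a, which defines the BAF form, had 97.9, 104 and 72.4 CPM in V5, against 59.0, 78.3 and 61.9 CPM in WT and 80.5 CPM in the input. WT replicate 2 was above V5 replicate 3, and the log2 fold change of 0.48 (SE 0.30) ranged from 0.37 to 0.66 without single libraries. Its paralog Arid1b, the longest gene of the list at 352583 bp, had 341, 356 and 365 CPM in V5, against 333, 374 and 310 CPM in WT and 206 CPM in the input. All of its ChIP libraries were above the input and the log2 fold change was 0.09 (SE 0.15). Arid2, of the PBAF form, had 96.7, 112 and 125 CPM in V5, against 130, 148 and 125 CPM in WT and 113 CPM in the input. V5 replicate 3 and WT replicate 3 were nearly equal, so that the groups just overlapped in CPM and came apart with TMM-scaled library sizes, and the log2 fold change was -0.24 (SE 0.23). Pbrm1, also of PBAF, stood at -0.10 (SE 0.25). Smim4 overlaps 32.7% of its span, so its counts are less certain.

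The ISWI ATPases pointed in different directions. Smarca1 (SNF2L), on chromosome X, had 131, 104 and 85.2 CPM in V5, against 81.5, 36.2 and 96.6 CPM in WT and 54.2 CPM in the input. WT replicate 2 was the lowest library, and that library also had 2.77% of its counts on chromosome X, against 3.94% to 4.51% in the other 6 libraries. The log2 fold change of 0.60 (SE 0.33) ranged from 0.28 without WT replicate 2 to 0.88 without WT replicate 3. Smarca5 (SNF2H), on chromosome 8, had 44.6, 38.6 and 46.6 CPM in V5, against 52.8, 43.7 and 60.3 CPM in WT and 60.2 CPM in the input. The groups overlapped and the log2 fold change was -0.25 (SE 0.37).

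PRC2 genes had 335 ± 26.0 CPM in V5 and 362 ± 54.3 CPM in WT in sum (SD, n = 3 each), with 2 positive and 2 negative log2 fold changes. Ezh1, a methyltransferase of H3 lysine 27, had 43.4, 57.1 and 39.6 CPM in V5, against 66.7, 53.5 and 32.3 CPM in WT and 42.4 CPM in the input. The groups overlapped, with a log2 fold change of -0.09 (SE 0.39). Suz12, a core subunit, had 60.7, 31.6 and 59.0 CPM in V5, against 42.7, 107 and 71.1 CPM in WT and 96.3 CPM in the input. WT replicate 2 was the highest library, and the log2 fold change of -0.51 (SE 0.38) was -0.15 without it and -0.78 without WT replicate 1. Suz12 had the highest level per length of the tested members in WT, at 1.79 CPM per kb, and in the input, at 2.35 CPM per kb. Eed, which binds trimethylated lysine 27, stood at 0.03 (SE 0.47), and Jarid2, an accessory subunit that helps recruit PRC2, stood at 0.03 (SE 0.19).

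PRC1 genes are mostly short and hold few counts, and 3 of 7 passed the filter. Rnf2, which encodes the main ubiquitin ligase RING1B, had 71.9, 25.5 and 45.9 CPM in V5, against 36.5, 23.4 and 33.1 CPM in WT and 38.7 CPM in the input. V5 replicate 2 lay inside the WT range, and the log2 fold change of 0.65 (SE 0.45) was 0.20 without V5 replicate 1 and 0.95 without V5 replicate 2. Bmi1, a repressor of the Ink4a locus, had 14, 7 and 21 counts in V5, 14, 24 and 42 in WT and 9 in the input. In CPM these were 17.4, 6.15 and 6.39 in V5, against 10.9, 18.1 and 16.8 in WT and 2.58 in the input. All ChIP libraries were above the input, whose exact Poisson 95% interval was 1.18 to 4.90 CPM. The log2 fold change between V5 and WT was -0.62 (SE 0.72), and it ranged from -1.30 without V5 replicate 1 to -0.32 without V5 replicate 3. Cbx7, a chromodomain subunit that binds trimethylated lysine 27, lay at 0.03 (SE 0.68) on the log2 scale, and ranged from -0.58 to 0.26 without single libraries.

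The PRC1 members below the filter have no fold change in the main fit and are given as counts. Cbx2 had 0, 1 and 22 counts in V5, 4, 12 and 12 in WT and 30 in the input. Ring1 had 0, 7 and 3 in V5, 5, 2 and 7 in WT and 19 in the input. A gene at 0 counts in V5 replicate 1 could still have had up to 3.72 CPM from counting error. Cbx8 had 6, 1 and 4 counts in V5, 6, 7 and 1 in WT and 4 in the input. Pcgf2, which encodes a PCGF subunit also called MEL18, had 6, 2 and 33 in V5, 6, 7 and 15 in WT and 51 in the input. None of these members was called by DESeq2 or by edgeR without the filter. At counts this low, the lack of a call does not show that the groups were alike.

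A second comparison set both kinds of ChIP library against the single input of tagged arches, over the 16736 genes whose counts summed to 70 or more over the 7 libraries, 37 members among them. With 1 input library there is no test. The median log2 ratio to the input was -0.13 in V5, where all genes had 0.02, and -0.20 in WT, where all genes had -0.01. The single V5 libraries did not share one direction against all genes: the member median was 0.046 in V5 replicate 1 (all genes -0.20), -0.051 in V5 replicate 2 (all genes -0.041) and -0.13 in V5 replicate 3 (all genes 0.033). In WT replicates 1 to 3 it was -0.18, -0.28 and -0.23, each below the value of all genes. In V5, 16 of 37 members were above the input, against 51.2% of all genes, and in WT 13 of 37 were, against 49.4%. The V5 and WT ratios share the error of that input. Members at least 2-fold above the input were Chd3 and Bmi1 in V5, where 8.71% of all genes were, and Bmi1 in WT, where 6.29% were. Members at least 2-fold below it were Pcgf2 and Cbx2 in V5, where 9.40% of all genes were, and Actr5, Smarcd1 and Pcgf2 in WT, where 7.53% were. The log2 ratio of Bmi1 was 1.86 in V5 and 2.46 in WT.

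A few members departed from the input in every ChIP library of either genotype. All 6 ChIP libraries were above the input in 3 members, Chd7, Arid1b and Bmi1, where 11.6% of all genes showed this. All 6 were below it in 6 members, Chd8, Smarca4, Smarcc1, Smarcc2, Pbrm1 and Pcgf2, where 15.4% of all genes did. Smarcc1 had 142 ± 28.7 CPM in V5 and 139 ± 20.6 CPM in WT (SD, n = 3 each), against 182 CPM in the input. Pbrm1 had 109 ± 13.2 CPM in V5 and 118 ± 21.2 CPM in WT (SD, n = 3 each), against 167 CPM in the input.

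**Figure D4:**
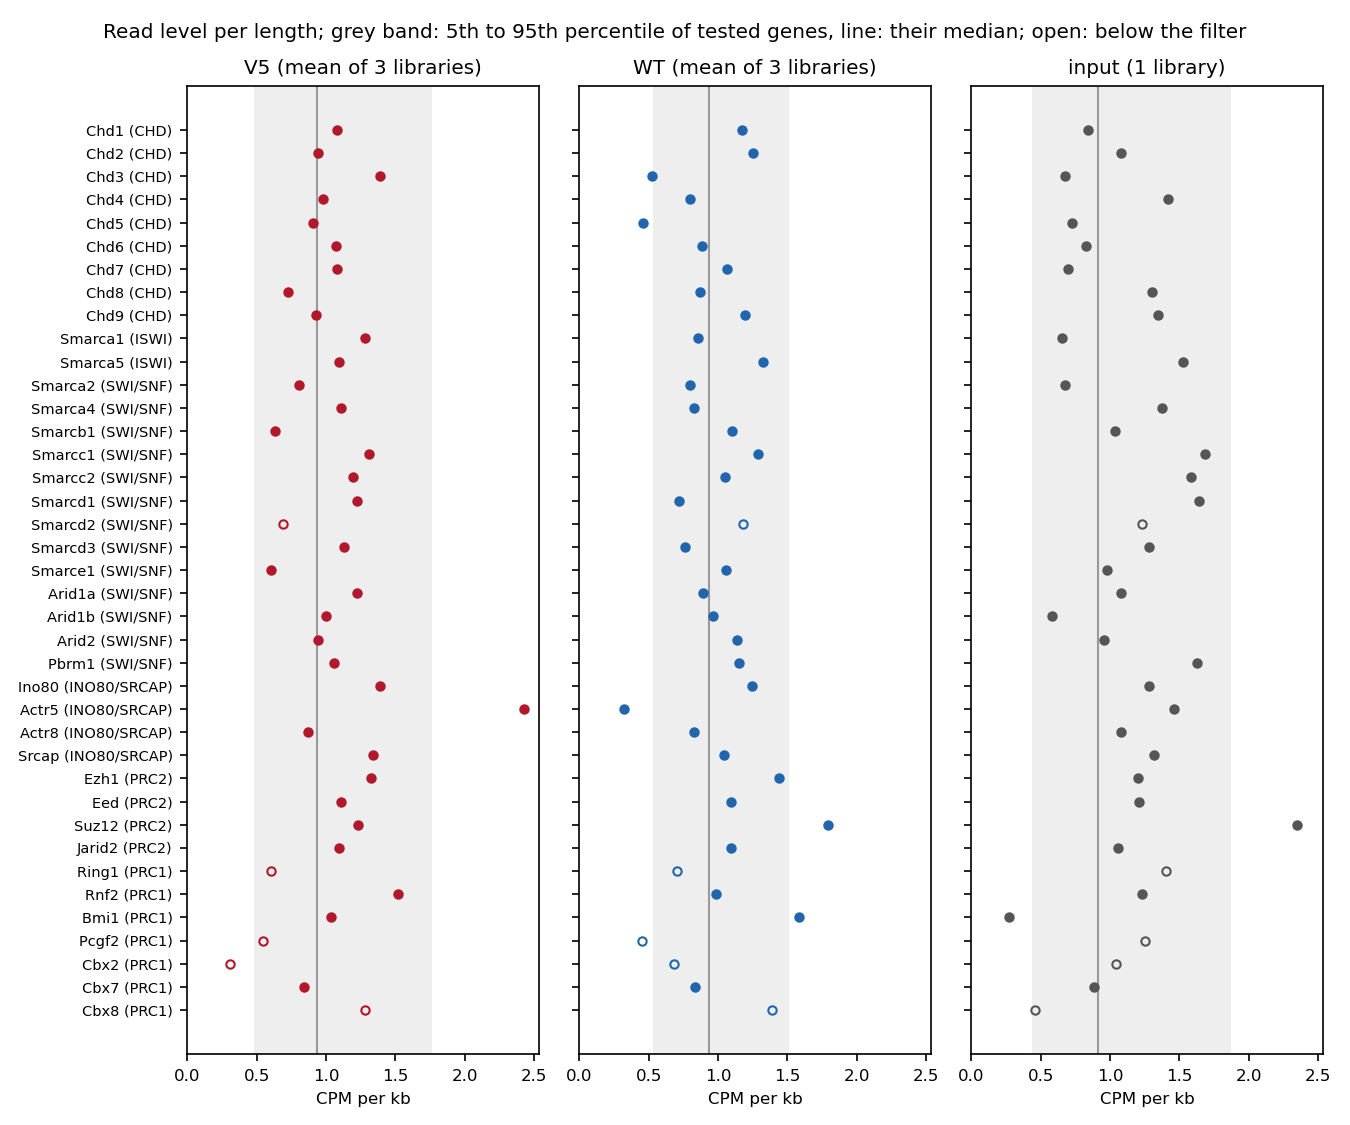
CPM per kb of deposited gene length for the 39 members in V5, WT and the input, with the 5th to 95th percentile of all tested genes as a grey band, their median as a line, and members below the filter as open circles. Of the tested members, Actr5 lies above the band in V5 (2.43) and below it in WT (0.320) with Chd5 and Chd3, Suz12 above it in WT (1.79) and the input (2.35), and Bmi1 above it in WT (1.59) and below it in the input (0.268).

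The tested members had a median of 1.09 CPM per kb in V5, 1.05 in WT and 1.14 in the input, where all tested genes had 0.935, 0.939 and 0.911. The next after Actr5 in V5 was Rnf2, at 1.52 CPM per kb, with Chd3 and Ino80 both at 1.39. At the low end of V5 were Smarce1, at 0.605 CPM per kb, and Smarcb1, at 0.633. In WT, Chd5 at 0.457 and Chd3 at 0.523 CPM per kb were the lowest after Actr5 and lay below the 5th percentile of all tested genes in WT.

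Fold changes ranged more widely in short members than in long ones, and the spread between replicates was not compared by length. Across the tested members the median SD of log2 CPM was 0.34 in V5 and 0.24 in WT, where all tested genes had 0.59 and 0.37. The median chi-square per degree of freedom was 5.25 in V5 and 3.31 in WT, and it was above 2 in 25 of 34 members in V5 and in 22 of 34 in WT, so most members varied more than counting error gives. The 11 tested members over 100000 bp, with a median of 1875 counts in the 7 libraries, had log2 fold changes from -0.38 to 0.31. Over the 2272 tested genes of that length the 5th and 95th percentiles were -0.39 and 0.39. The 23 shorter members had a median of 492 counts and ranged from -0.76 to 2.85. The tested members had a median length of 46281 bp and all tested genes one of 30217 bp.

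**Figure D5:**
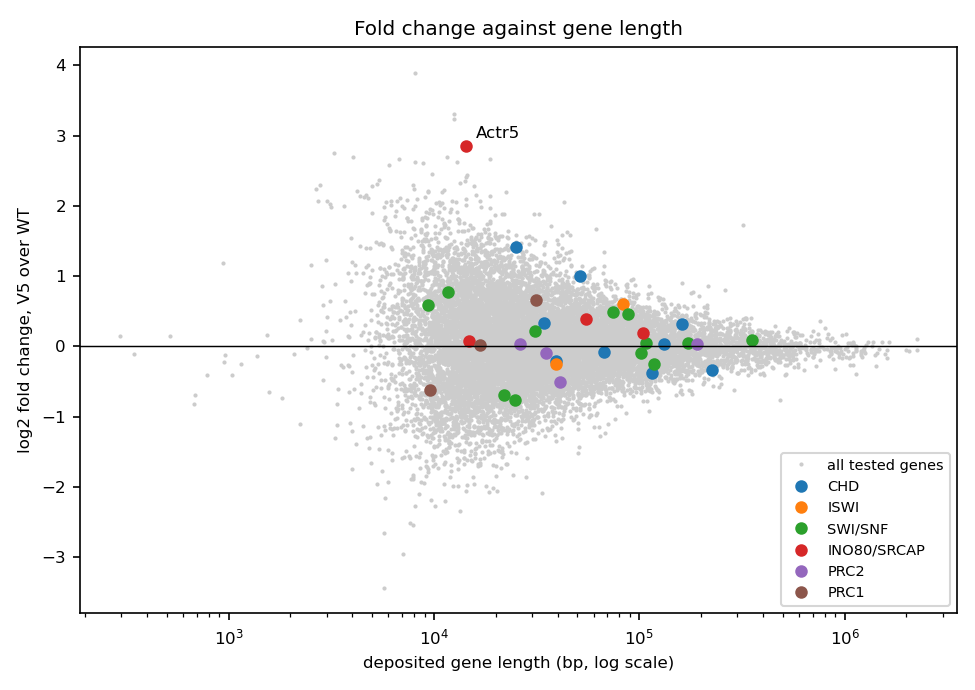
Log2 fold change of V5 over WT against deposited gene length (log scale) for all 14575 tested genes in grey and the 34 tested members in colour by complex. Values spread less in longer genes, where the members over 100000 bp lie between -0.38 and 0.31, and Actr5 lies at 2.85.

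Other genes of the same complexes, 88 in number, were listed to set the members beside their partners. Of 76 tested, 0 passed edgeR's test in either direction, 3 had an unadjusted p under 0.05 (4.12% of all tested genes did), 44 lay above 0 (52.0% of all tested genes did) and 32 below, and the median log2 fold change was 0.09. Every V5 library was above every WT library in 7 of them, where 4.83% of all tested genes showed this, and below in 1, where 5.27% did. Chd1l, a remodeller that acts in DNA repair, had 91.7, 81.7 and 44.7 CPM in V5, against 42.7, 26.4 and 37.1 CPM in WT and 28.7 CPM in the input, a log2 fold change of 1.06 (SE 0.39). The PRC1 partner genes Bcor, at 0.71 (SE 0.31), and Scml2, at 0.52 (SE 0.24), are both on chromosome X, of which WT replicate 2 had the smaller share. Without that library they stood at 0.51 and 0.47. In the other direction were Aebp2, an accessory subunit of PRC2, at -0.54 (SE 0.32), Smarcad1, a remodeller of the SNF2 family, at -0.48 (SE 0.31), and Actr6, an actin-related subunit of SRCAP, at -0.84 (SE 0.55). Actr6 had 14.9, 12.3 and 17.3 CPM in V5, against 17.8, 31.6 and 32.3 CPM in WT and 24.7 CPM in the input, with no overlap between V5 and WT and a sign opposite to that of Actr5.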

How the data were processed

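The deposited files hold whole-number read counts per gene, not normalized, with an Entrez identifier and a length, per the file headers. The source of the lengths, of which 1 is negative, is not stated. Per the submitters' processing notes, bcl2fastq, featureCounts, MACS and the mm10 build were used; no aligner, duplicate handling or counting option is given in the sources at hand. Symbols and coordinates came from RefSeq GRCm38.p6, which matched 25275 of 27179 identifiers. The 7 single-library files held the same counts as the series table.

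The V5 and WT groups, 3 libraries each, were tested against each other in edgeR 4.0.16 under R 4.3.3 (genes kept by filterByExpr at minimum count 10, TMM, robust glmQLFit, glmQLFTest, two-sided, Benjamini-Hochberg over 14575 genes, threshold 0.05). The biological coefficient of variation was 0.387. The code was tested on simulated counts with large fold changes only, which does not show how often smaller differences would be called. Ratios to the input used mean CPM and a prior count of 0.5. Intervals and floors (3 counts) cover counting error only. Alternatives were DESeq2 1.42.0, limma 3.58.1 (voom), DESeq2's size factors in edgeR, no filter, left-out libraries and a replicate block. Members and gene lists were chosen with earlier results of these data known. Full values are given for the 6 tested members with the smallest p in each direction, for the main ATPases and enzymes, and for members with 0 counts in some library, and 3 other genes of the complexes are named per direction, also by smallest p. Further members, the neighbouring genes, the promoters shown, the length bound, and the INO80/SRCAP sum without Actr5 were chosen after values were seen.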

Additional observations from a re-analysis of the deposited data

How the results depend on the processing

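No member was called under any alternative run. Over all genes, where edgeR called 0 (600 at an unadjusted p under 0.05), there were 9 calls without a filter on low counts, 4 with limma-voom, 0 with DESeq2, 1 with the replicate block and 0 to 2 without single libraries, 2 without V5 replicate 2. The replicate numbers were not taken as pairs: deviations of same-numbered V5 and WT libraries correlated at 0.0143, 0.00530 and 0.0522, and of the V5 libraries only replicate 3 correlated best with its own number. The median log2 fold change of members, 0.05, was -0.020 with limma-voom, where all genes had -0.018. Without single libraries it ranged from -0.10 (without V5 replicate 1) to 0.15 (without V5 replicate 3). It was 0.07 without members overlapped by another gene, an alternative chosen after seeing the data. The 4 members with all V5 above all WT libraries were 2 with TMM-scaled sizes and 5 to 8 without single libraries, and the 2 members below were 3 to 5. With fewer libraries such separation was more frequent over all genes too, at 8.03% to 11.3% above and 8.66% to 16.9% below. The median log2 ratio of WT to input, -0.20, was -0.23 to -0.13 without single WT libraries, -0.13 without WT replicate 2. The cause of these shifts was not tested. Of 374 alternative member fold changes, 33, in 13 members, had the other sign. Of the 374, 370 moved by less than 1 SD of log2 CPM between libraries, pooled over the V5 and WT groups. Leaving out 1 of 3 libraries can rarely move a value that far, so this count does not show that the values were stable.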
